A study of Mus musculus with 2 samples.

Results

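The genes described here form the death-promoting arm of the BCL2 family, measured in bone marrow stem and progenitor cells of a mouse model of chronic myeloid leukemia (CML). They were taken by gene symbol, as a family defined by function: the effectors Bax and Bak1, and the BH3-only genes Bid, Bcl2l11, Bbc3, Pmaip1, Bad, Bmf, Bik and Hrk. These are 10 of the 34745 genes in the tables, and 8 of the 10 had reads in both libraries.

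RNA-seq was performed on BM LSKs, the lineage-negative, Sca1-positive, c-Kit-positive fraction that holds hematopoietic stem cells and early progenitors, sorted from Scl/tTA-BA mice on the C57BL/6 background. In these mice a tetracycline-controlled transactivator under a regulatory element of the Scl gene, active in stem and progenitor cells, drives a BCR/ABL (BA) transgene, which doxycycline in the drinking water keeps off. Both libraries therefore came from mice that carry the transgenes. Week-0 was the control, before BA was induced, and week-3 was taken 3 weeks after doxycycline withdrawal. Each time point was 1 library from LSKs of 3 mice mixed together, so the spread between mice cannot be seen. Doxycycline and BA change at the same step. The main calls rest on no p-value, and a test with an assumed variation is used only as an alternative setting. Reads assigned to genes numbered 6356164 in the control library and 3886695 in the induced one.

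BCL2 family proteins decide whether the outer mitochondrial membrane is opened, the step that commits most cells to apoptosis. Bax and Bak form the pores. Survival proteins such as Mcl1, Bcl2 and Bcl-xL (Bcl2l1) hold them in check, and BH3-only proteins either bind those survival proteins or engage Bax and Bak directly. Many BH3-only genes are regulated by how much of them is transcribed. Their proteins are controlled as well: Bid awaits cleavage, and Bim, Bad and Bmf are phosphorylated by kinases or held by other proteins. BCR/ABL signalling is known to keep Bim (Bcl2l11) low, and inhibitors of its kinase are known to raise it.

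The levels are in FPKM, which scales a gene's reads by its exon length and by the reads of the library, and changes are given as the ratio of week-3 to week-0 FPKM, with a 95% interval from the reads. Those intervals cover counting error only. A gene was called higher or lower when its ratio was at least 2 or at most 0.5 and the interval of the ratio did not hold 1. Over the 15377 genes with reads in both libraries, 9.53% were called higher and 11.5% lower, and the median log2 ratio was 0.09. Of the 8 members with reads in both, 2 were higher (Bid and Pmaip1), 2 were lower (Bbc3 and Bcl2l11) and 4 were not called. Their median log2 ratio was 0.47. With 25% of 8 genes in each direction, each count is only 2 genes.

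Among the 8 members with a promoter window, the 2 that were lower are the ones with a FoxO consensus. Those windows are printed here before the values. Pmaip1, which was higher, had no window to search, so of the higher members only Bid was searched. Each is 250 bases before a RefSeq start on GRCm38.p6, on the gene's strand, with the letters of the match in capitals. The Bbc3 window lies within the span of the gene, and overlap of the windows with annotated exons was not examined here. FoxO factors switch on several BH3-only genes when PI3K-Akt signalling is low. The match was searched as GTAAACA on both strands.
Bbc3, chr7:16310011-16310260, plus strand, match on the opposite strand: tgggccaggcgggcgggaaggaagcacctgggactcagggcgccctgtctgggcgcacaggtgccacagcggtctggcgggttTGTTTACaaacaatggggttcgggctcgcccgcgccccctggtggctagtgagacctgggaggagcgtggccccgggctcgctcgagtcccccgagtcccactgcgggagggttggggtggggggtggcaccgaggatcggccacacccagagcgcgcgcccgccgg
Bcl2l11, chr2:128125788-128126037, plus strand, match on the gene strand: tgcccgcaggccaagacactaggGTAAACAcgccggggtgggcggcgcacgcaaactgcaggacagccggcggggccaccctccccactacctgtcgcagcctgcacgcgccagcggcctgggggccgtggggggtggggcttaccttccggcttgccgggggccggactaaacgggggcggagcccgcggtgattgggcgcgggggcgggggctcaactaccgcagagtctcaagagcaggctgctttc

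The first base of the match lay 167 bases before the start in Bbc3 and 227 bases in Bcl2l11. It was present in 1 of 3 windows of Bbc3 and 1 of 2 windows of Bcl2l11, and in none of the other windows of the 8 members in the promoter table. Of all 32851 windows in that table, 3.17% held it. The motifs were chosen after the values were known, so the match is a description and says nothing of binding. An AP-1 site, TGANTCA, was found in 0 of the 14 member windows and in 6.75% of all, and a CRE, TGACGTCA, in 0 and 1.55%. An ATF4 composite element, TGATGNAAN, was found in Hrk alone among the members and in 3.44% of all windows. A p53 half-site was found in Bax and Bmf and in 7.13% of all windows. The promoter windows of Bbc3 and Bcl2l11 were 72% to 81.6% G and C, against a median of 52.4%. Pmaip1 and Bik were not in the table.

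Several cell type markers moved between the libraries. LSK markers such as Kit, Ly6a and Cd34 were present in both. The 8 of them held 0.212% of week-0 reads and 0.0979% of week-3 reads, with Flt3, Mecom and Procr called lower. Flt3 alone had 6177 of their 13487 reads at week-0 and 934 of their 3804 at week-3. The other 5 LSK markers were not called, with log2 ratios from -0.77 (Meis1) to -0.42 (Ly6a). Mast cell markers went from 0.00862% to 0.373% of reads (5 of the 5 with reads in both were higher, and Tpsb2 and Mcpt4 had 0 reads at week-0). Neutrophil markers went from 0.349% to 1.64% (9 of 9 higher). The largest counts among them were those of Mpo (9443 and 18486 reads), Elane (5454 and 18391), Prtn3 (3552 and 12505) and Ctsg (2423 and 10942). B and plasma cell markers went from 0.441% to 0.0487% (4 of 7 lower). Erythroid and megakaryocyte markers went from 0.137% to 0.0296%, with 5 of 9 lower (the globins Hbb-bs, Hbb-bt and Hba-a1, Car1 and Klf1). The platelet lineage genes were not called and differed in direction. Itga2b had 554 and 645 reads (log2 ratio 0.93), Pf4 137 and 77 (-0.12) and Gp9 106 and 40 (-0.70). Monocyte and dendritic markers were at 0.0844% and 0.0940%, a near-level sum of 4 lower genes (Cd74, H2-Aa, H2-Ab1 and Siglech) and 1 higher gene (Ly6c2, 1118 to 3148 reads). T and NK cell markers were at 0.0449% and 0.0677%, nearly all of it Nkg7 (2839 and 2627 reads), and the other T and NK markers had at most 5 reads in either library. Immediate-early genes, which respond within minutes to handling and signals, took 3.53% of week-0 reads and 1.01% of week-3 reads, with 10 of the 12 measured in both called lower. Their part in the fall of Bbc3, Bcl2l11, Ddit3 and Cdkn1a was not tested. In bulk cells, fewer cells of a type and less RNA per cell cannot be told apart. The mouse Bcr gene had 371 and 108 reads and Abl1 had 395 and 144. Reads of the human transgene were not identified here.

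Bax (ENSMUSG00000003873, chr7:45461695-45466898) encodes the cytosolic effector that inserts into the mitochondrial membrane. Bax took 928 reads in the control library and 924 in the other, equal to 168 FPKM and 274 FPKM. Its log2 ratio was 0.70 (0.57 to 0.84), a 1.63-fold higher level that falls short of the 2-fold limit. At limits of 1.5 and 0.67, which 18.3% of all tested genes passed upward and 17.1% downward, Bax was called higher as the one change among the members. It was the most abundant member in both libraries. Bak1 (ENSMUSG00000057789, chr17:27019810-27029009), the effector that sits in the membrane already, was near the lower end. It had 21 reads and 18 reads, or 0.752 FPKM and 1.05 FPKM, and its log2 ratio of 0.49 had an interval from -0.51 to 1.47, so its direction was not resolved at this depth. The Bax to Bak1 ratio did not differ beyond counting error between the libraries (log2 0.22, -0.77 to 1.22).

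**Figure D1:**
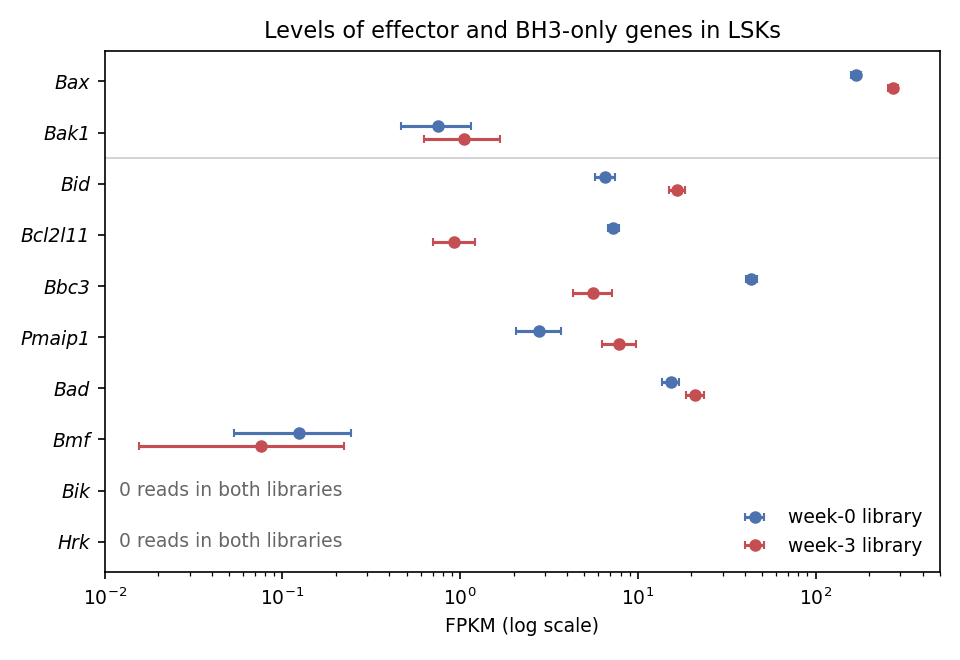
FPKM of the 10 genes (log axis) in the week-0 library (blue) and the week-3 library (red), with bars for exact Poisson 95% intervals of the reads. Bbc3 and Bcl2l11 move left from 43.4 to 5.61 FPKM and from 7.28 to 0.928 FPKM, while Bax stays the highest in both libraries, and Bik and Hrk had 0 reads.

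Bcl2l11 (ENSMUSG00000027381, chr2:128126038-128162547) encodes Bim, which binds every survival protein and can engage Bax and Bak directly. Its reads numbered 718 before and 56 after induction of BA, or 7.28 FPKM and 0.928 FPKM. It was 7.84-fold lower at week-3 (interval 5.97 to 10.5), a log2 ratio of -2.97 (-3.39 to -2.58). Of all genes with reads in both libraries, 2.15% had a ratio as low. Bbc3 (ENSMUSG00000002083, chr7:16309616-16318205) encodes Puma, the p53 target that shares Bim's breadth of binding. It went from 798 reads to 63 reads, or from 43.4 FPKM to 5.61 FPKM, which is 7.74-fold lower (5.99 to 10.2). Of the same genes, 2.17% had a ratio as low. Its log2 ratio was -2.95 (-3.35 to -2.58). The difference between the log2 ratios of the 2 genes was 0.02 (-0.55 to 0.58). Immediate-early genes and several marker lists moved between the same libraries, with the values given above.

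Pmaip1 (ENSMUSG00000024521, chr18:66458604-66465550) encodes Noxa, which binds Mcl1 in particular. It had 47 reads and then 81 reads, or 2.79 FPKM and 7.88 FPKM, and was 2.82-fold higher (1.94 to 4.13), so its interval reached just below the 2-fold limit. Bid (ENSMUSG00000004446, chr6:120891930-120916853), which caspase-8 cleaves to its active form, had 228 reads and 354 reads, or 6.56 FPKM and 16.7 FPKM. It was 2.54-fold higher, with a log2 ratio of 1.34 (1.10 to 1.59). Of all genes with reads in both libraries, 7.74% had a ratio as high as Pmaip1 and 9.03% as high as Bid. The 2 did not differ in their change beyond counting error (-0.15, -0.76 to 0.44). Bid shares 628 exon bases, 17.7% of its exon bases in GENCODE M21, with the opposite-strand gene Bcl2l13, and the library kit does not mark strand. Bcl2l13 itself went the other way, from 297 reads to 94 reads.

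**Figure D2:**
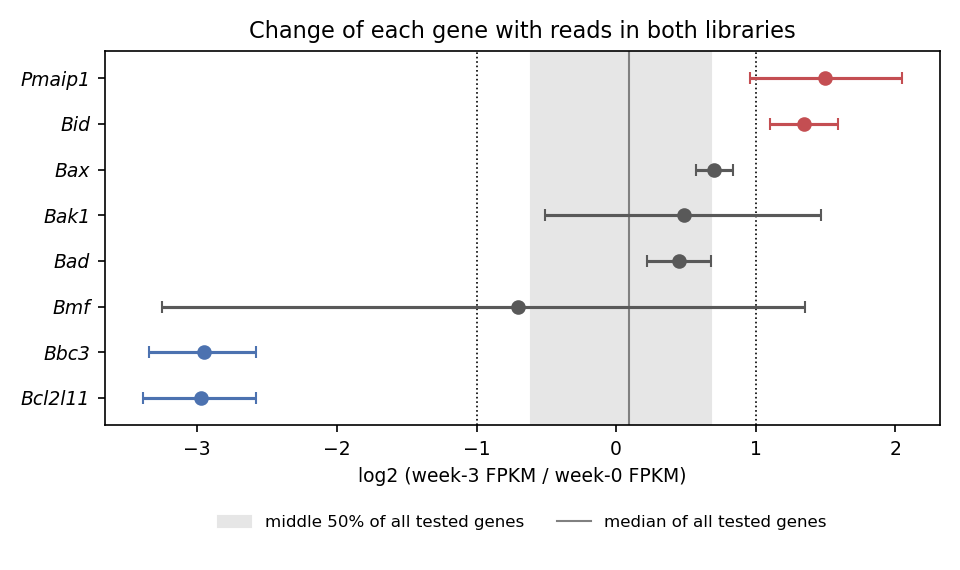
log2 ratio of week-3 to week-0 FPKM for the 8 members with reads in both libraries, with 95% counting intervals. The grey band holds the middle 50% of all 15377 genes, the vertical grey line is their median of 0.09, and the dotted lines mark the limits of 2-fold and 0.5-fold. Red points were called higher, blue points lower and dark points neither.

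Bad (ENSMUSG00000024959, chr19:6941861-6951898) encodes the sensitizer that Akt and other kinases hold inactive by phosphorylation. It had 348 reads and 291 reads, or 15.3 FPKM and 20.9 FPKM, with a log2 ratio of 0.45 (0.22 to 0.68), and it was not called. Bad shares 20.5% of its exon bases with the opposite-strand gene Gpr137, which had 131 reads and 62 reads. Bmf (ENSMUSG00000040093, chr2:118528757-118549687), which is held on the actin cytoskeleton until released, had 8 reads and 3 reads, too few to give a direction (-0.71, -3.25 to 1.35). Bik (chr15:83526862-83544635) and Hrk (chr5:118164648-118189478) had 0 reads in both libraries, and the limit that a count of 0 allows was 0.472 RPM (reads scaled by the library total only) in the control library and 0.772 RPM in the other. Bak1 shares 18.2% of its exon bases with the opposite-strand gene Ggnbp1, which had 23 and 19 reads. Reads within those shared bases cannot be told apart without strand. Bbc3, Bcl2l11, Pmaip1 and Bmf share no exon bases with another gene of the tables. Bax shares 192 with Gm45808, which is not in the tables.

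The reads of the BH3-only genes were held by different members in the 2 libraries. Of 2147 BH3-only reads at week-0, 70.6% (68.6 to 72.5, exact binomial interval) came from Bbc3 and Bcl2l11, against 14.0% of 848 reads at week-3 (11.8 to 16.6). Bid and Pmaip1 went from 12.8% to 51.3%, and Bad alone from 16.2% to 34.3%. Shares add up to the whole, so the fall of Bbc3 and Bcl2l11 raises the other shares by itself. Bad, for example, was not called. Ratios between members do not depend on how the libraries are scaled. The log2 change of Bbc3 relative to Bid was -4.29 (-4.76 to -3.84), and that of Bcl2l11 relative to Pmaip1 was -4.46 (-5.15 to -3.78). Bbc3 fell by 3.66 relative to Bax, and Bid was higher relative to Bad by 0.89 (0.55 to 1.23).

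**Figure D3:**
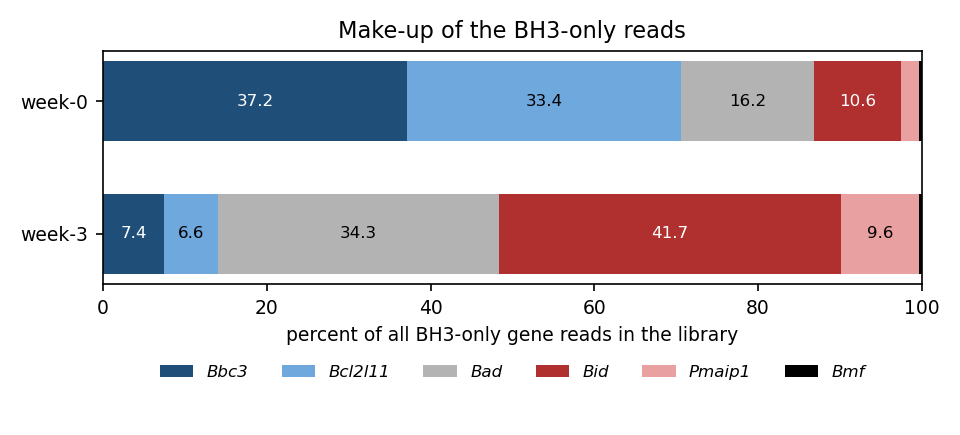
Share of the BH3-only gene reads held by each gene in the week-0 and week-3 libraries, in percent. Bbc3 and Bcl2l11 together fall from 70.6% to 14.0%, and Bid and Pmaip1 grow from 12.8% to 51.3%.

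In order of FPKM the week-0 library had Bax, Bbc3, Bad, Bcl2l11, Bid, Pmaip1, Bak1 and Bmf, and only Bcl2l11 and Bid had overlapping intervals with their neighbour. The week-3 order was Bax, Bad, Bid, Pmaip1, Bbc3, Bak1, Bcl2l11 and Bmf, with overlap between Pmaip1 and Bbc3 and between Bak1 and Bcl2l11. Bbc3 thus went from the second place to the fifth. The exon length behind the authors' FPKM was not the union of exons in GENCODE M21: it was 0.551 times that union for Bax and 1.93 times for Bcl2l11. With the union length, an alternative added after seeing the data, the week-0 order was the same, and at week-3 Bbc3 and Pmaip1 both stood at 7.63 on the same scale as FPKM. Bax over Bbc3 at week-0 was 1.57-fold with the union length, against 168 and 43.4 FPKM.

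Among the survival proteins that hold BH3 domains, 1 of the 6 genes with reads in both libraries was called higher (Bcl2l2, 18 to 49 reads) and 2 lower (Mcl1, 2448 to 640 reads, and Bcl2a1d, 28 to 6 reads), and Bcl2l10 had 0 reads. Mcl1, the main partner of Noxa and a binder of Bim and Puma, fell 2.34-fold. Bbc3 fell by 1.73 on the log2 scale more than Mcl1 (-2.14 to -1.33) and Bcl2l11 by 1.75 more (-2.18 to -1.33). The summed FPKM of the BH3-only genes was 75.5 in the control and 52.1 after induction, and that of the survival genes was 113.5 and 60.3, of which Mcl1 held 84.2% and 67.8%. The BH3-only sum over the survival sum went from 0.665 to 0.863, but without Mcl1 the survival sum was 17.9 and 19.5 FPKM and the ratio went the other way, from 4.21 to 2.68. These sums and their ratios carry no interval and rest on the exon lengths of the authors' FPKM. They were not recomputed with the union length. Levels of mRNA are not levels of protein, and Mcl1 protein is short-lived.

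Of the 12 transcription factors known to act on BH3-only genes, 11 had reads in both libraries, and 6 were called lower and 0 higher. Ddit3 (CHOP), a stress factor that acts on Bim and Puma, went from 1477 to 83 reads, a log2 ratio of -3.44 (-3.78 to -3.12), and Atf4, which acts above it, fell by 1.17. Foxo1 and Foxo4 fell by 1.95 and 1.08, while Foxo3 had a log2 ratio of -0.71 and was not called. Jun fell by 1.0 and Rela by 1.76. E2f1 and Myc went up, with log2 ratios of 0.61 (0.22 to 0.99) and 0.56 (0.41 to 0.70), and were not called. Nfkb1 was not called either, at -0.84. The median of the list was -1.0, against 0.09 over all genes. Trp53 had a log2 ratio of -0.38 and was not called. The p53 targets outside the BCL2 family split: of 9 with reads in both, 4 were lower (Cdkn1a, Sesn2, Phlda3 and Tnfrsf10b) and 1 was higher (Aen, an exonuclease). Cdkn1a, the p21 cell cycle inhibitor, went from 14243 to 1439 reads, a log2 ratio of -2.60. Of the p53 targets among the members, Bbc3 was lower, Pmaip1 was higher and Bax was not called.

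**Figure D4:**
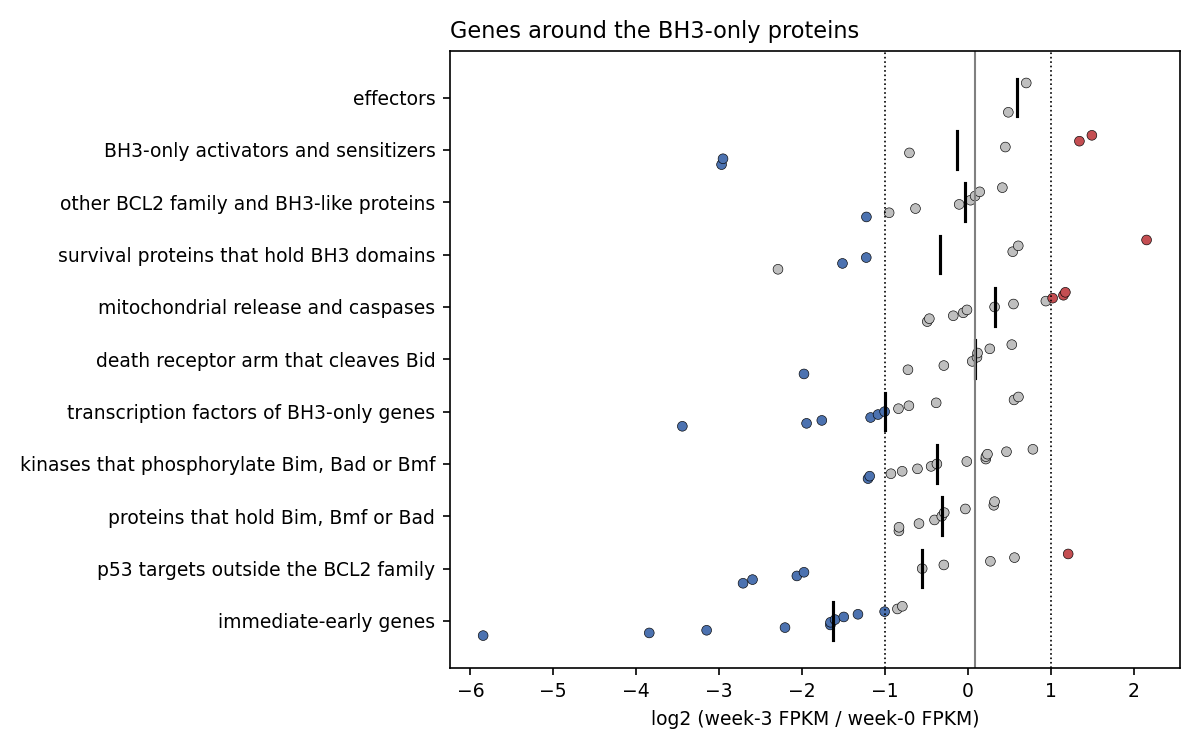
log2 ratio of week-3 to week-0 FPKM for each gene of the BCL2 family and of the lists around it, 1 point a gene; red was called higher, blue lower, grey neither, and the black bar is the list's median. The transcription factors of BH3-only genes have a median of -1.0 and the immediate-early genes -1.63, against 0.09 over all genes.

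Downstream of the pore, 3 of 11 genes of mitochondrial release and caspases were called higher and 0 lower: Casp9 (29 to 36 reads), the initiator caspase of the apoptosome, Endog (21 to 29 reads) and Aifm1 (156 to 212 reads), but Casp9 is past the limit under total-read scaling only. Of 8 genes of the death receptor arm that leads to cleavage of Bid, 1 was lower (Tnfrsf10b, 103 to 16 reads), and Casp8, the protease that cleaves Bid, had 467 and 308 reads and a log2 ratio of 0.11. Among kinases that phosphorylate Bim, Bad or Bmf, the JNK gene Mapk8 was lower (197 to 53 reads), and Mapk9 (249 to 80 reads) was called lower under both other scalings only. The 9 genes of dynein light chains and 14-3-3 proteins that hold Bim, Bmf or Bad in the cytoplasm gave 0 calls. Of 8 other BCL2 family genes with reads in both, 1 was lower (Bok, an effector-like protein, 149 to 39 reads), with Bcl2l13 added under both other scalings.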

How the data were processed

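LSKs were sorted after lineage depletion, with 3 mice mixed into 1 library per time point. The authors made cDNA with a low-input kit that does not mark strand, sequenced paired ends and mapped to GRCm38 with TopHat2 2.0.9 (per the submitters' processing notes). The authors deposited counts of reads per gene, not normalized, and FPKM, scaled by exon length and total reads. The counting tool, annotation release and exon lengths are not given in the sources used here.

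Groups came from the labels. With 1 library per time point no replicate test is possible. The ratio is week-3 over week-0 FPKM for 15377 genes above 0 reads in both libraries, with an exact Clopper-Pearson 95% interval of the week-3 share of a gene's reads, turned into a ratio. FPKM carry exact Poisson intervals. A value is called at a ratio of at least 2 or at most 0.5 with an interval away from 1. The named genes are all members, the called genes of each list, and otherwise the gene with the most reads, any gene at 0, and Bcr and Abl1; others named were chosen after their values were seen. Members and lists were chosen with earlier results of these data known. Motifs were searched in RefSeq promoter windows, gene models and exon overlaps come from GENCODE M21. Alternatives used edgeR 4.0.16 (exact test with an assumed biological coefficient of variation) and DESeq2 1.42.0 size factors in R 4.3.3, otherwise Python 3.11.15 and scipy 1.17.1. The scripts were tested on simulated data. Protein sequences were not used here, and some genes of the lists are not reported here.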

Additional observations from a re-analysis of the deposited data

How the results depend on the processing

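Scaling by TMM lowered every log2 ratio by 0.11 and median-of-ratios scaling by 0.09, and neither changed a call among the members. Across the settings tried, 53 values were recomputed and 3 moved: the 2 counts at the assumed variation of 0.4 and the log2 ratio of Bcl2l11 given below. A count was taken as unmoved within 1.5 times of its value, and a log2 ratio within its 95% counting interval. At limits of 1.5 and 0.67, where 18.3% of genes were higher and 17.1% lower, Bax was also higher, so 3 members were higher and 2 lower. With edgeR's exact test at an assumed biological coefficient of variation of 0.4, 0 members were higher and 0 lower at a q-value of 0.05, 2 (Bbc3 and Bcl2l11) had an unadjusted p under 0.05, and 29 genes were higher and 87 lower in all, since that setting assumes a wide spread between animals. At 0.1 the members called were the same 4. With a pseudocount of 1 added to FPKM, Bcl2l11 had a log2 ratio of -2.10, and the low genes Bmf and Bak1 went to -0.06 and 0.23. All 32 single-gene values kept their sign. These settings could not turn it: a shared pseudocount keeps the sign, and each scaling shift was smaller in size than every member's log2 ratio. No paired analysis was possible because there was 1 library per time point. Bmf and Bak1 have too few reads for a direction, and with 1 library per time point the spread between mice is unknown, so a ratio past the limit here may not exceed it.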

Other observations

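The 4 members in the deposited p53 signaling term (Bax, Bid, Bbc3 and Pmaip1) did not move together: Bbc3 was lower, Bid and Pmaip1 were higher and Bax was not called. Of the 8 members in the apoptosis term, Hrk had no reads and the others had ratios on both sides of 1. Among the kinases that hold Bad inactive, the gene with the most reads, Pim1, had 1853 and 1334 reads and a log2 ratio of 0.24, and Rps6ka1 had a log2 ratio of 0.78 without reaching the 2-fold limit. Ywhaz, the gene with the most reads among the proteins that hold Bad, had 8400 and 3412 reads and a log2 ratio of -0.59. Cycs, which encodes cytochrome c, had 1683 and 1974 reads and a log2 ratio of 0.94, just under the limit.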
